A study of Rattus norvegicus with 28 samples.

Results

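The 45 genes described here are members of the Fanconi anaemia, homologous recombination and mismatch repair pathways, with their closest partners in DNA break repair and checkpoint signalling. They were picked by gene symbol, with earlier results of these data known. From the 30178 genes of the expression table these were Fanca to Fancm, the genes whose symbols begin with Rad5, the Xrcc genes, Msh and Mlh genes, Brca1, Brca2, Brip1, Palb2, Blm, Exo1, Bard1, Eme1, Parp1 and Chek2. Fancd2os, a neighbour of Fancd2, and Rad54l2, a helicase gene, came in through their names only. Of the 45 genes, 40 reached at least 1 FPKM in at least 2 libraries and were tested. FPKM values count fragments after correction for gene length and library size, so that levels of different genes can be set side by side.

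The RNA came from NRK-49F, an established fibroblast line from rat kidney, in 8 libraries of polyadenylated RNA in 4 groups of 2. The first group was control cells. The second group received TGF-β1 (transforming growth factor β1, here TGF-β) for 48 h, the third TGF-β with methionine restriction (MetR), and the fourth TGF-β with an siRNA, a short RNA that silences its target, directed at the homeobox gene Hoxc8 (siHoxc8). Per the labels, cells were grown in 10% serum and starved for 24 h in 0.2% serum, TGF-β1 was used at 5 ng per μL (the unit the labels print), and methionine was at 30 μM in the restriction medium against 200 μM in its control medium. The labels do not say in which medium the control and TGF-β cells stood, and they give no time for the control cells. None of the 8 libraries is from cells with a control siRNA, so the effect of transfection and that of the knockdown cannot be told apart. Whether replicates were grown apart is not stated, and the p-values then reflect only how much these libraries vary, which may be technical.

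DNA crosslinks, broken ends and mispaired bases are repaired by proteins that work in a fixed order. In the Fanconi pathway FANCM and the core complex (FANCA, B, C, E, F, G and L) recognise a stalled crosslink and attach ubiquitin to FANCD2 and FANCI, which load nucleases onto the site. The resulting break is resected by the RAD50 complex and EXO1, BRCA1 with BARD1 and PALB2 with BRCA2 then prepare the strand for exchange with an intact copy, and BLM and EME1 take the joint molecules apart. In mismatch repair MSH6 and MSH3 serve in the complexes that bind the error, which is then cut out and refilled. Many of these genes are known to be transcribed most in dividing cells, and a fibroblast treated with TGF-β is known for laying down matrix.

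Reads recovered from the FPKM values numbered 15131505 to 20163922 per library. Hoxc8, the gene targeted by the siRNA, was at 1.12 and 1.34 FPKM in control, 4.32 and 5.01 with TGF-β, 0.417 and 0.614 with MetR, and 0.463 and 0.0771 with siHoxc8, so both siHoxc8 libraries were below every TGF-β library, as were both MetR libraries. Of the fibroblast markers, Col1a1 (2788 to 5627 FPKM), Vim, Pdgfra and Pdgfrb were present in every library, while Thy1 was listed at 0 and Dcn reached at most 1.08 FPKM. The 9 fibroblast markers summed to 6975 and 7041 FPKM in control and 11750 and 12720 with TGF-β. Their sums were 8708 and 5920 FPKM with MetR, and 9986 and 10480 with siHoxc8. Col1a1 and Vim made up most of each sum, which hides shifts of single markers. Of the 7 tested, 1 rose and 2 fell with TGF-β. Over TGF-β, 2 rose and 2 fell with MetR, and 2 rose and 1 fell with siHoxc8. Col3a1 was at 367.3 and 373.8 FPKM with TGF-β and 2588 and 2785 with siHoxc8. Vim was at 5256 and 6204 FPKM with TGF-β and 1992 and 2042 with siHoxc8. MetR libraries 1 and 2 differed for Col3a1 (505.5 and 105.3 FPKM) and Lum (36.53 and 6.527). Of the 6 epithelial markers, Epcam was listed at 0, Cdh1 and Krt18 stayed at or under 0.105 FPKM and Pax8 at or under 0.739, but Krt8 and Cdh16 moved with the groups. Krt8 stood at 193.5 to 251.9 FPKM in the other 6 libraries and at 685.1 and 645.5 with siHoxc8 (1.67 ± 0.11, adjusted p = 6.24e-05 over TGF-β), and Cdh16 at 2.53 and 2.76 FPKM with MetR against at most 0.106 elsewhere (1.78 ± 0.16, adjusted p = 0.00017 over TGF-β). Of the 4 endothelial markers Kdr was listed at 0, and their sum was at most 0.934 FPKM, mostly Tek, which averaged 0.770 FPKM with MetR and 0.0872 with TGF-β. Of the 6 leukocyte markers Ptprc stayed at or under 0.0196 FPKM, and their sum of 0.493 to 2.73 FPKM was mostly Cd68, which fell with siHoxc8 over TGF-β (-0.81 ± 0.27, adjusted p = 0.0444). The part of these marker shifts in the repair gene results was not tested. Among the 40 repair genes the median difference between the libraries of a group was 0.11 (control), 0.13 (TGF-β), 0.18 (MetR) and 0.11 (siHoxc8) on the log2(FPKM + 1) scale, and the largest was 0.79, for Rad51b with siHoxc8, a gene with as few as 3 reads in a library.

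Promoter sequences are shown for 6 of the genes whose levels the results turn on, because several moved together. Fancd2, Fanci, Brca1 and Rad51ap1 fell with TGF-β and were higher with siHoxc8, and Fancf and Msh6 were higher with MetR. These patterns are not exclusive: Msh6 was also higher with siHoxc8 over TGF-β, and Fancf also fell with TGF-β. Each runs from 250 bases before to 50 bases after the transcription start, on the gene's own strand, 5′ to 3′, from RefSeq on GRCr8, and capitals mark matches on either strand to an E2F-like motif (with the letters TTCCCGC, or with TTGGCGC, or else with TTCGCGC), the CHR motif (TTTGAA) or the CCAAT box. A match is a description of letters, not a binding site.
Brca1, chr10:86977532-86977831, reverse strand: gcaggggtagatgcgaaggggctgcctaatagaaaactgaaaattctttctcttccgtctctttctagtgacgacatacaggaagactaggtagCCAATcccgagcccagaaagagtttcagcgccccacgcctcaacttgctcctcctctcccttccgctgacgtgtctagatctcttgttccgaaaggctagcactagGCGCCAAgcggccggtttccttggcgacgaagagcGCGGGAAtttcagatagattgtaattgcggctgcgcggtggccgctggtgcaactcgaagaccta
Fancd2, chr4:148234458-148234757, forward strand: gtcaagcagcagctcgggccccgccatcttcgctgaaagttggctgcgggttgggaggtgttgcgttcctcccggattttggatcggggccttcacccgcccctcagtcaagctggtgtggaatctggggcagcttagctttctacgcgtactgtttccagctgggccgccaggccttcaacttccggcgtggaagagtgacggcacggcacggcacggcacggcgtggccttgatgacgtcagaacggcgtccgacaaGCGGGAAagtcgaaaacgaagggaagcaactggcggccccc
Fanci, chr1:142736403-142736702, forward strand: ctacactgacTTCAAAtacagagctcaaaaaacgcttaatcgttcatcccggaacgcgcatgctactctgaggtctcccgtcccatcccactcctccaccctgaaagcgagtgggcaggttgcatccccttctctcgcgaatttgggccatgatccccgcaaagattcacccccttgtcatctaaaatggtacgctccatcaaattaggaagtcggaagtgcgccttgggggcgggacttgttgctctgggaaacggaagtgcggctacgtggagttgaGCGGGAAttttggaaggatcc
Rad51ap1, chr4:161458510-161458809, reverse strand: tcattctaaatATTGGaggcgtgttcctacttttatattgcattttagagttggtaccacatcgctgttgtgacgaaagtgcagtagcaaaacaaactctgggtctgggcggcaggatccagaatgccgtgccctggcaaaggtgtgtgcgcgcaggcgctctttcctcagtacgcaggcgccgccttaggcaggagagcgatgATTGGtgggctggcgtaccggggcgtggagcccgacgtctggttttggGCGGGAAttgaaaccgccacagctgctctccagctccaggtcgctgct
Fancf, chr1:110587821-110588120, reverse strand: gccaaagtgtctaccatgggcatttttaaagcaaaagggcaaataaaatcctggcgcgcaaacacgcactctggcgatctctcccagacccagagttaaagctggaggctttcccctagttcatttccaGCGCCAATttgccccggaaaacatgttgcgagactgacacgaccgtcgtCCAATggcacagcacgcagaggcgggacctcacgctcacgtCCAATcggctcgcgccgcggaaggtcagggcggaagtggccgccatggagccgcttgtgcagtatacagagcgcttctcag
Msh6, chr6:12333456-12333755, reverse strand: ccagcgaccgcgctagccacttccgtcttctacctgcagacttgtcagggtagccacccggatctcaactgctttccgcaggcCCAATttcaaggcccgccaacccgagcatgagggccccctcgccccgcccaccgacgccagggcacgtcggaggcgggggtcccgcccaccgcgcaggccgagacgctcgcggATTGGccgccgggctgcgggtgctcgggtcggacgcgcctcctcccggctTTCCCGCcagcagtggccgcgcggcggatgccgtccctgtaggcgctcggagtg
All 6 promoters hold an E2F-like match, and Brca1 holds 2. The 6 do not stand for the set: the promoters of Exo1, Rad51c, Fanca, Brca2, Fance and Msh3, not shown, hold none. Promoters of this length were matched for 35 of the 45 genes. E2F-like matches lay in 14 of those 35 (40.0%), against 15.5% of the 8700 matched promoters of all genes tested and 8.0% of all 27457 promoters of the RefSeq table. CHR matches lay in 7 (20.0%, against 11.4% and 18.1%) and CCAAT boxes in 14 (40.0%, against 38.5% and 37.7%). Some matches of different motifs share bases, as in the Fancf promoter. The median GC content was 59.0% for the repair genes and 61.3% for the genes tested. Of the genes raised with siHoxc8 over TGF-β, E2F-like matches lay in 7 of 20 promoters, and of the other tested repair genes in 5 of 12.

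By level, Parp1, Xrcc6, Xrcc1, Msh6 and Xrcc5 were the most abundant of the 45 genes in the control libraries, at mean FPKM of 40.1, 32.3, 23.2, 18.4 and 18.3. The libraries of Msh6 and Xrcc5 overlapped (18.0 and 18.8 FPKM against 17.5 and 19.0), so those neighbours did not differ beyond their spread. At the other end, Msh4, Rad51ap2 and Fancd2os were at or under 0.36 FPKM and 7 reads in every library, and Rad54b (0.15 to 0.686 FPKM) and Mlh3 (0.322 to 0.94 FPKM) stayed under 1 FPKM. These are the 5 untested genes. Brca2, Eme1, Exo1, Fancb, Msh5 and Rad51b passed the filter through 3 or 4 of the 8 libraries only. For Brca2, Eme1, Exo1 and Fancb these were the control and siHoxc8 libraries. For Rad51b they were the control libraries and siHoxc8 library 1, and for Msh5 the siHoxc8 libraries and MetR library 2. These genes entered the test through groups where they were high, so their calls against lower groups are not independent of the filter.

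**Figure D1:**
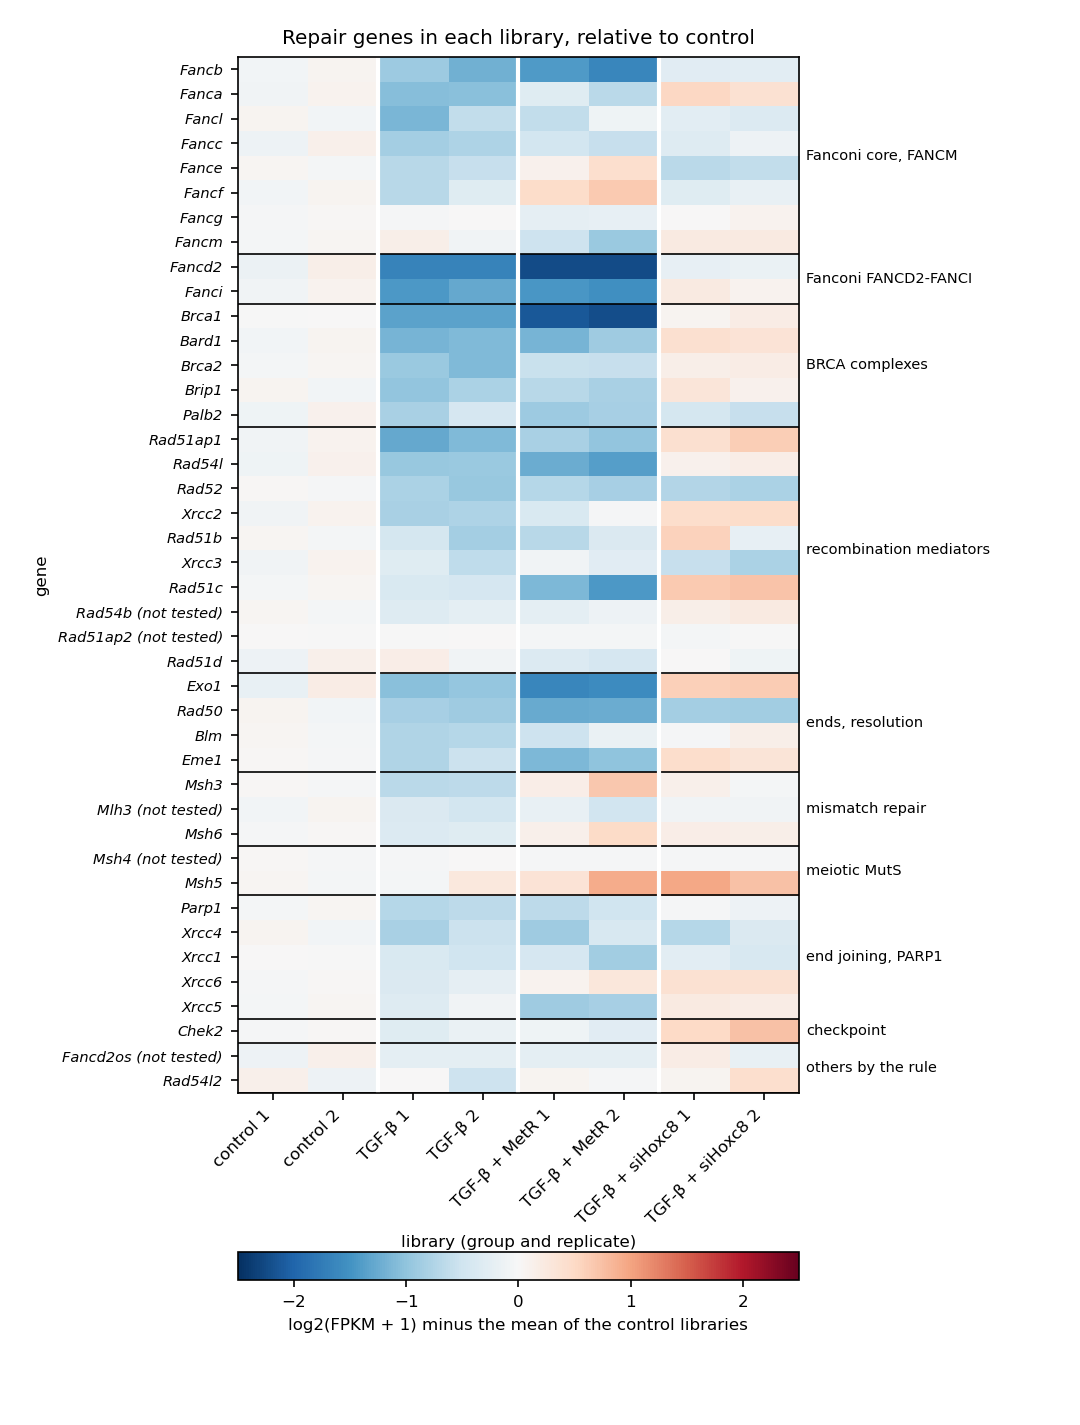
Each row is 1 of 42 of the 45 repair genes, grouped by role, and each column 1 of the 8 libraries. Colour gives log2(FPKM + 1) minus the mean of the control libraries, blue for lower and red for higher: the TGF-β and MetR columns are mostly blue, darkest for Fancd2 and Brca1, and the siHoxc8 columns are pale except for genes such as Rad50, Rad52 and Fance (blue) and Rad51c, Msh5 and Chek2 (red).

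TGF-β against control asks how the fibroblasts respond to the cytokine. With TGF-β, 28 of the 40 tested repair genes fell and none rose. Among the falls are Brca2, Eme1, Exo1 and Fancb, which reached 1 FPKM only in control and siHoxc8 libraries. Changes are given as the difference of mean log2(FPKM + 1) ± its standard error, with n = 2 libraries per group and p-values from limma, adjusted over all 12315 genes tested. Genes said to rise, fall or differ most are ranked on this scale. Large falls were those of Fancd2 (-1.66 ± 0.14, adjusted p = 0.000184) and Fanci (-1.36 ± 0.13, adjusted p = 0.000313), the ubiquitinated pair of the Fanconi pathway, and Brca1 (-1.34 ± 0.12, adjusted p = 0.000258). As background, 28.6% of all genes tested were called lower and 10.3% higher, and the median change was -0.71 for the 40 repair genes and -0.19 for all genes. Limma found 0 repair genes raised at an unadjusted p under 0.05, and limma-voom on recovered reads raised 0 and lowered 27. In 35 of the 40 genes both TGF-β libraries were below both control libraries (52.6% of all genes); those of Fancg, Fancm, Rad51d, Msh5 and Rad54l2 overlapped. These are bulk values, in which fewer cells that express a gene and less RNA per cell cannot be told apart.

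Beside these falls, 10 of 11 proliferation markers fell with TGF-β, and their summed level was 174.2 and 178.5 FPKM in control against 54.2 and 65.2 with TGF-β. Top2a (log2 change -2.07 ± 0.13) and Mki67 (-1.94 ± 0.12) led them. Of 17 genes of S phase and E2F activity, 16 fell. The part of these shifts in the repair gene results was not tested. The calls of 17 of the 28 genes held under every alternative that tested them (among them Bard1, Brca1, Brca2, Brip1, Exo1, Fanca, Fancb, Fancd2, Fanci, Parp1, Rad50, Rad51ap1, Rad52 and Rad54l). Rescaling the libraries to a common median ratio, which takes the all-gene median from -0.19 to 0.00 and the raised share of all called genes from 26.5% to 51.5%, left 24 lowered, and quantile normalization left 18. Leaving out control 1 ended the calls of Blm (adjusted p = 0.0753) and Fance (0.0708), and leaving out control 2 that of Xrcc2 (0.0537). Fancf, Xrcc3, Xrcc4, Msh3, Palb2, Fancl and Eme1 lost their calls without either control library (adjusted p between 0.067 and 0.226) and without at least 1 further library.

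MetR with TGF-β was set against TGF-β alone, the question of the series being what methionine restriction does to TGF-β-treated fibroblasts. The repair genes split: 8 rose and 10 fell, against 34.8% of all genes raised and 19.0% lowered. Msh3 (1.09 ± 0.18, adjusted p = 0.00208), which binds small insertion and deletion loops, and the Fanconi core genes Fancf (1.06 ± 0.17, adjusted p = 0.00155) and Fance (0.90 ± 0.13, adjusted p = 0.00119) rose most. Rad51c (-0.88 ± 0.15, adjusted p = 0.00192), a recombination mediator, Brca1 (-0.83 ± 0.12, adjusted p = 0.0011) and Fancm (-0.76 ± 0.17, adjusted p = 0.00698), the core's anchor on DNA, fell most. The other genes that rose were Msh6, Xrcc2, Fanca, Xrcc6 and Brca2, and the others that fell included Xrcc5, Exo1, Fancd2, Fancb, Rad51d and Rad50. By ratio of mean FPKM, the low genes Exo1 (5.81-fold) and Fancb (2.87-fold) fell further than Rad51c (2.78-fold), Brca1 (2.74-fold) and Fancm (1.96-fold). The median change of the 40 was 0.10 (0.18 for all genes), and it turned to -0.09 with median ratio rescaling and -0.10 with quantile normalization, where 6 rose and 13 fell, and 8 rose and 14 fell. Among all called genes 64.7% were raised, and 49.2% once median ratios had been rescaled.

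In the same libraries 10 of 11 proliferation markers fell further, to a summed level of 21.3 and 20.6 FPKM with MetR from 54.2 and 65.2 with TGF-β, and their part in the result was not tested. Calls that held in every setting that tested them included the rises of Fance, Fancf, Msh3, Msh6 and Xrcc6 and the falls of Brca1, Fancd2, Fancm, Rad51c and Xrcc5. Without TGF-β library 1 only 6 genes fell, and the calls of Rad50 (adjusted p = 0.0621), Exo1 (0.0542), Xrcc2 (0.0526), Fanca (0.0783), Fancb (0.201) and Rad51d (0.187) were lost. Without TGF-β library 2 Exo1 (0.0824), Xrcc2 (0.0501), Fanca (0.0748) and Brca2 (0.121) were lost. Without MetR library 1 Fanca (0.0735), Brca2 (0.0582) and Rad51d (0.0588) were lost, and without MetR library 2 Fancb (0.144), Brca2 (0.0507) and Rad51d (0.104). Brca2, Fancb and Rad51d were also lost without any 1 of the control and siHoxc8 libraries (adjusted p between 0.0525 and 0.0757), so Brca2 and Rad51d kept their calls in 1 of the 8 fits and Fancb in 2.

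siHoxc8 with TGF-β against TGF-β alone asks what silencing Hoxc8 does in the presence of the cytokine; it shares the TGF-β libraries with both comparisons above, so the values are only set side by side. With siHoxc8, 26 of the 40 repair genes rose and none fell, against 28.1% of all genes raised and 15.7% lowered. The rises include Brca2, Eme1, Exo1, Fancb, Msh5 and Rad51b, which passed the filter through few libraries, none of them with TGF-β alone. Rad51ap1 (1.70 ± 0.14, adjusted p = 0.000148), a recombination cofactor, Exo1 (1.62 ± 0.17, adjusted p = 0.00034), the resecting exonuclease, Fanci (1.51 ± 0.13, adjusted p = 0.000151) and Bard1 (1.50 ± 0.14, adjusted p = 0.000254), the partner of BRCA1, rose most. The median change was 0.72 for the 40 and 0.13 for all genes. At an unadjusted p under 0.05 limma had 28 repair genes higher and 0 lower, and limma-voom on recovered reads called 25 higher and 0 lower. The genes without a call included Rad50, Rad52, Palb2, Fance, Fancf, Fancg, Fancl, Fancm, Rad51d, Rad54l2, Xrcc1, Xrcc3 and Xrcc4.

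All 11 proliferation markers rose with siHoxc8, to a summed level of 291.2 and 277.2 FPKM, above that of the control libraries, and 16 of 17 S phase and E2F genes rose. Their part in the repair gene result was not tested. The calls of 19 genes held in every setting that tested them, and those of Rad51b, Msh5, Msh3, Msh6, Xrcc5, Fancc and Blm did not. Blm was lost without siHoxc8 library 2 (adjusted p = 0.0508). Fancc was lost without TGF-β library 1 (0.0685) and without siHoxc8 library 2 (0.113), and Xrcc5 without TGF-β library 1 (0.0861), siHoxc8 library 1 (0.117) and siHoxc8 library 2 (0.0895). Msh3 and Msh6 were lost without any 1 of the 4 TGF-β and siHoxc8 libraries (adjusted p between 0.0505 and 0.108). Rad51b and Msh5, which have the fewest reads of these 7 genes, were lost without either control library and without at least 3 others (adjusted p between 0.0561 and 0.256). Median ratio rescaling, which takes the raised share of all called genes from 64.1% to 48.8%, left 24 repair genes raised.

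**Figure D2:**
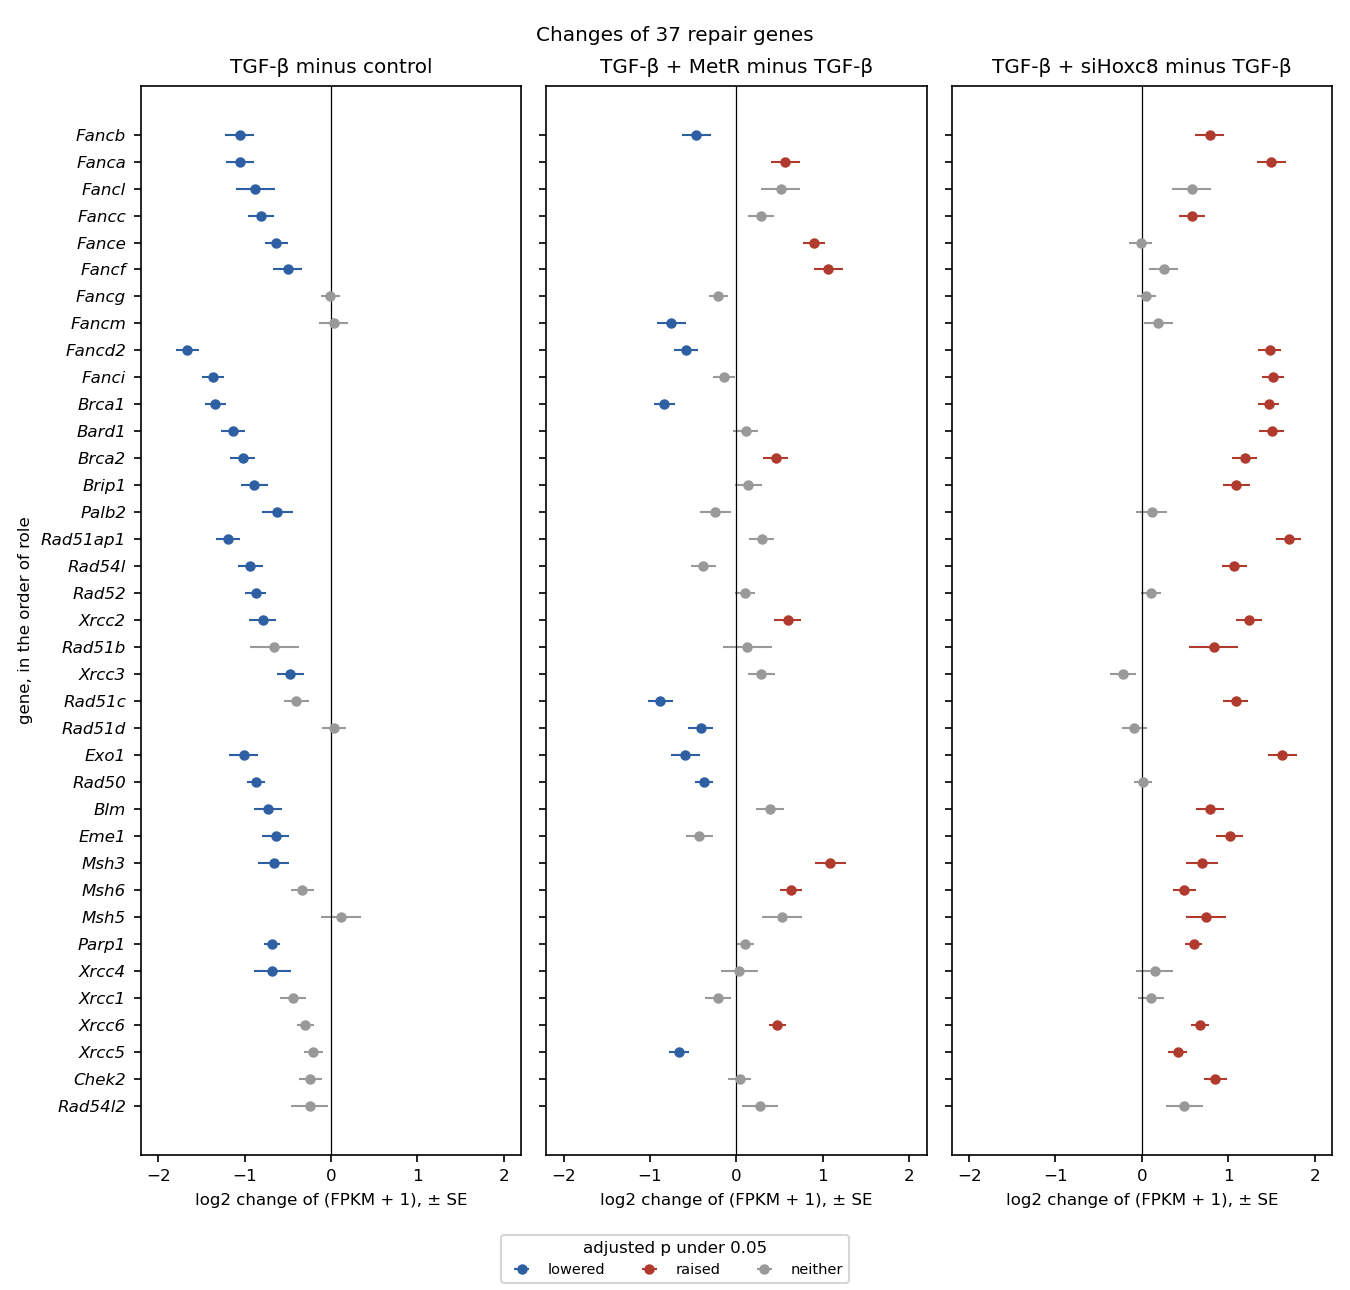
The log2(FPKM + 1) change of each of 37 of the 40 tested repair genes, ordered by role, with its standard error as a bar, in 3 comparisons: TGF-β minus control, MetR minus TGF-β and siHoxc8 minus TGF-β. Blue points are genes called lower, red points genes called higher and grey points neither, at an adjusted p of 0.05: most points are blue in the first panel, colours are mixed in the second, and the third has no blue point.

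Of the 8 genes of the Fanconi core and its anchor, Fancm, 6 fell with TGF-β, where 28.6% of all genes fell. With MetR over TGF-β 3 rose and 2 fell, near the 34.8% and 19.0% of all genes. With siHoxc8 over TGF-β 3 rose, near the 28.1% of all genes, so the MetR and siHoxc8 counts do not set these genes apart. The falls with TGF-β and the rises with siHoxc8 include Fancb, which reached 1 FPKM only in control and siHoxc8 libraries. Fanca, the gene most often mutated in Fanconi anaemia, was at 3.002 and 3.52 FPKM in control, 1.04 and 1.07 with TGF-β, 2.46 and 1.66 with MetR, and 5.07 and 4.53 with siHoxc8. Both TGF-β libraries were lowest and both siHoxc8 libraries highest, with no overlap between any of the groups. Its changes were -1.05 ± 0.17 with TGF-β, 0.56 ± 0.17 for MetR over TGF-β and 1.50 ± 0.17 for siHoxc8 over TGF-β. Fance, whose product bridges the core to FANCD2, was at 13.6 and 12.7 FPKM in control, 7.75 and 8.55 with TGF-β, 14.2 and 18.0 with MetR, and 7.87 and 8.25 with siHoxc8. It fell with TGF-β (-0.63 ± 0.13, adjusted p = 0.00856), and the siHoxc8 libraries overlapped those of TGF-β (log2 change -0.01 ± 0.13). Both MetR libraries of Fance were back above both control libraries, though MetR against control gave no call. Fancf, an adaptor of the core, was at 4.34 and 4.83 FPKM in control, 2.43 and 3.55 with TGF-β, 6.70 and 7.84 with MetR, and 3.52 and 3.91 with siHoxc8, highest in both MetR libraries. Fancb, the X-linked core gene, was at 2.44 and 2.76 FPKM in control, 0.907 and 0.566 with TGF-β, 0.349 and 0.165 with MetR, and 1.94 and 2.01 with siHoxc8. It was lowest with MetR, fell by 1.06 on the log2 scale with TGF-β and rose by 0.78 with siHoxc8 over TGF-β.

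Fancc fell with TGF-β (-0.81 ± 0.15, adjusted p = 0.005) and rose with siHoxc8 over TGF-β (0.58 ± 0.15, adjusted p = 0.0162), and Fancl, which encodes the ubiquitin ligase subunit, fell with TGF-β (-0.88 ± 0.23, adjusted p = 0.0194). Fancg, at 4.55 to 5.85 FPKM in all 8 libraries, was called in none of the comparisons in the main fit. With quantile normalization its TGF-β change of -0.01 became 0.35 (adjusted p = 0.0379). Its MetR libraries were below all others, and MetR against TGF-β and siHoxc8 against MetR passed 0.05 in some alternative settings. Fancm was at 4.38 and 4.75 FPKM in control, 5.16 and 4.26 with TGF-β, 2.90 and 1.92 with MetR, and 5.47 and 5.53 with siHoxc8. Its MetR libraries were below all other libraries, and the TGF-β libraries overlapped those of control.

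Fancd2 and Fanci, the genes of the ubiquitinated pair, fell with TGF-β and rose with siHoxc8 over TGF-β. Fancd2 was at 7.57 and 9.46 FPKM in control, 1.99 and 1.99 with TGF-β, 1.0 and 0.996 with MetR, and 7.26 and 7.39 with siHoxc8. Control and siHoxc8 libraries stood apart from TGF-β and MetR libraries, and both MetR libraries were below both TGF-β libraries. Fancd2 was 4.28-fold lower with TGF-β than in control, 1.99-fold lower again with MetR (-0.58 ± 0.14, adjusted p = 0.00879) and 3.68-fold higher with siHoxc8 than with TGF-β alone (1.48 ± 0.14, adjusted p = 0.000216). Fanci was at 8.09 and 9.23 FPKM in control, 2.56 and 2.97 with TGF-β, 2.50 and 2.33 with MetR, and 10.2 and 9.28 with siHoxc8. Unlike Fancd2 it had no call between MetR and TGF-β (log2 change -0.14 ± 0.13, adjusted p = 0.393), though whether the genes differ in that response was not tested.

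Among the BRCA complex genes, all 5 fell with TGF-β (28.6% of all genes) and all but Palb2 rose with siHoxc8 over TGF-β (28.1% of all genes). Of these, Brca2 reached 1 FPKM only in control and siHoxc8 libraries, so its calls are not independent of the filter. Brca1, whose product directs broken ends to recombination, was at 7.07 and 7.26 FPKM in control, 2.23 and 2.24 with TGF-β, 0.872 and 0.756 with MetR, and 7.62 and 8.27 with siHoxc8. No groups overlapped, control and siHoxc8 stood close together, and MetR libraries were lowest. Its fold was 3.21 lower with TGF-β than in control, 2.74 lower with MetR than with TGF-β and 3.56 higher with siHoxc8 than with TGF-β. Bard1 was at 3.74 and 4.15 FPKM in control, 1.21 and 1.30 with TGF-β, 1.21 and 1.66 with MetR, and 5.56 and 5.23 with siHoxc8, with MetR and TGF-β libraries overlapping. Brca2, a tumour suppressor of recombination, was at 1.77 and 1.95 FPKM in control, 0.501 and 0.324 with TGF-β, 0.954 and 0.907 with MetR, and 2.18 and 2.26 with siHoxc8. Its MetR libraries lay above those of TGF-β (0.45 ± 0.14, adjusted p = 0.0307), where those of Brca1 lay below. Brip1, the helicase that binds BRCA1, was at 2.48 and 2.17 FPKM in control, 0.677 and 0.921 with TGF-β, 1.06 and 0.890 with MetR, and 3.11 and 2.57 with siHoxc8, low in both TGF-β and MetR groups. Palb2, the bridge between BRCA1 and BRCA2, was at 2.23 and 2.71 FPKM in control, 0.967 and 1.58 with TGF-β, 0.844 and 0.958 with MetR, and 1.55 and 1.32 with siHoxc8. Both siHoxc8 libraries remained below both control libraries and overlapped those of TGF-β.

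Among the genes that assist strand exchange, Rad51ap1 was at 6.93 and 7.88 FPKM in control, 2.46 and 2.90 with TGF-β, 3.78 and 3.24 with MetR, and 10.01 and 11.9 with siHoxc8, and both siHoxc8 libraries were above all others. Rad54l, the motor protein that drives strand exchange, was at 3.33 and 4.09 FPKM in control, 1.43 and 1.48 with TGF-β, 0.976 and 0.798 with MetR, and 4.09 and 4.24 with siHoxc8. Rad52, an annealing factor, was at 9.16 and 8.70 FPKM in control, 4.72 and 4.15 with TGF-β, 5.04 and 4.60 with MetR, and 4.95 and 4.73 with siHoxc8. For Rad52 the 6 libraries with TGF-β lay together below control, and neither MetR (0.10 ± 0.12) nor siHoxc8 (0.11 ± 0.12) gave a call over TGF-β.

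Rad51b, Rad51c, Rad51d, Xrcc2 and Xrcc3, a family of recombination mediators, gave calls that varied by gene. Rad51c was at 3.39 and 3.69 FPKM in control, 2.47 and 2.41 with TGF-β, 1.08 and 0.681 with MetR, and 6.16 and 6.44 with siHoxc8. It was not called with TGF-β (-0.40 ± 0.15, adjusted p = 0.0629), was lowest with MetR (-0.88 ± 0.15, adjusted p = 0.00192) and highest with siHoxc8 (1.09 ± 0.15, adjusted p = 0.00101), with no overlap between groups. Xrcc2 was at 3.77 and 4.38 FPKM in control, 1.90 and 1.95 with TGF-β, 2.90 and 3.98 with MetR, and 5.87 and 5.92 with siHoxc8, called lower with TGF-β, higher with MetR and higher with siHoxc8. Xrcc3 ranged from 7.18 to 14.1 FPKM and was called lower with TGF-β (-0.47 ± 0.15, adjusted p = 0.044) only among these 3 comparisons. Rad51d (4.53 to 7.25 FPKM) was called only as lower with MetR (-0.42 ± 0.14, adjusted p = 0.0421). Rad51b reached 2.34 FPKM in siHoxc8 library 1 and 0.939 in siHoxc8 library 2, so its call there rests mainly on 1 library.

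**Figure D3:**
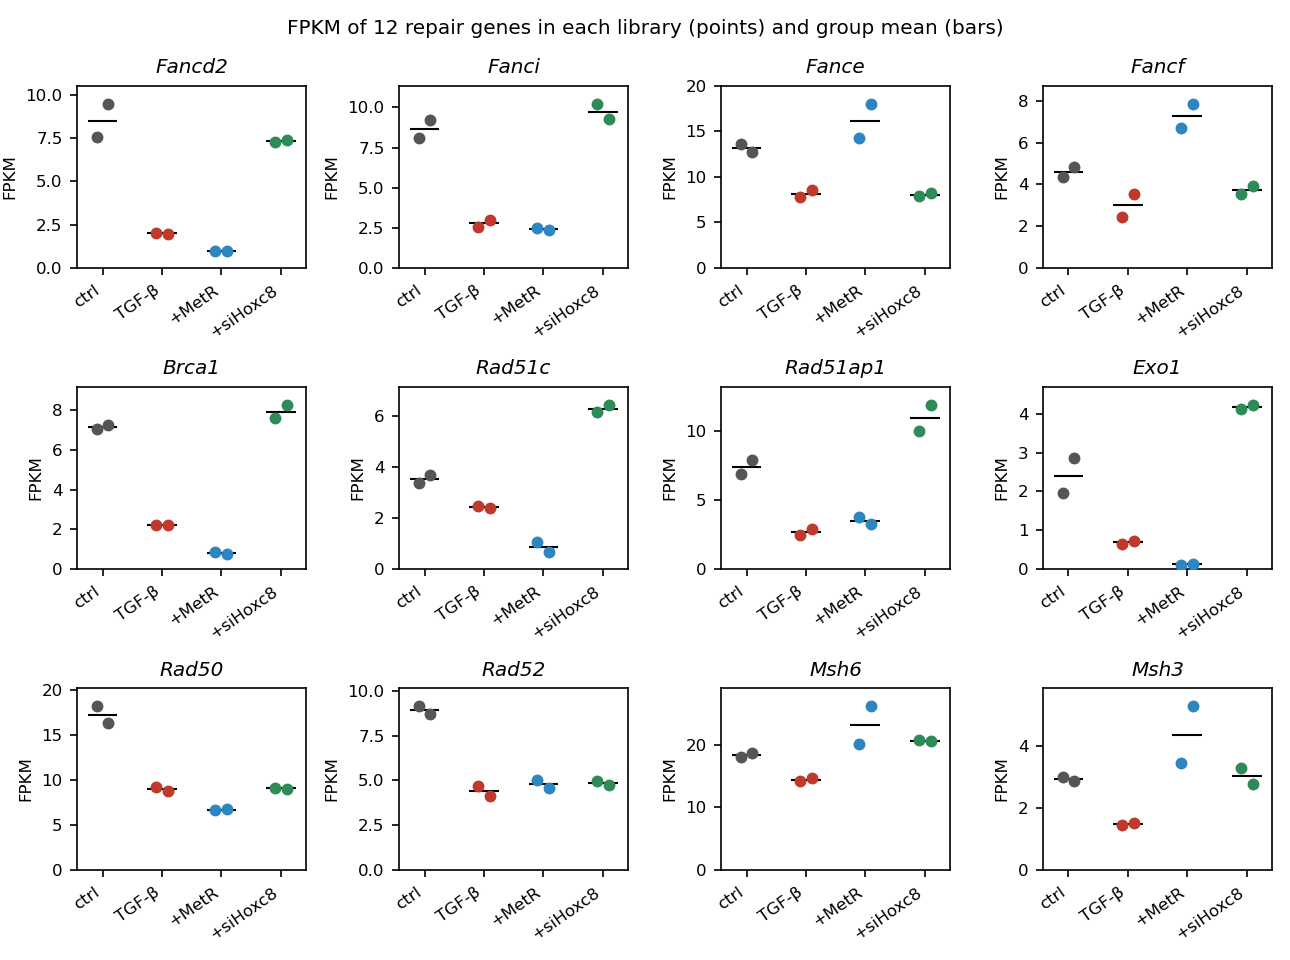
FPKM of 12 repair genes in each of the 8 libraries (points), with the group mean as a bar, each panel on its own axis from 0. Fancd2, Fanci, Brca1, Rad51c, Rad51ap1 and Exo1 are low with TGF-β and MetR and high with siHoxc8; Fance, Fancf and Msh3 are highest with MetR; Msh6 is lowest with TGF-β; Rad50 and Rad52 are low in all 3 groups with TGF-β.

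In end processing and resolution all 4 genes fell with TGF-β (28.6% of all genes) and 3 rose with siHoxc8 over TGF-β (28.1% of all genes). Of these, Exo1 and Eme1 reached 1 FPKM only in control and siHoxc8 libraries. Exo1 was at 1.95 and 2.87 FPKM in control, 0.638 and 0.729 with TGF-β, 0.0987 and 0.137 with MetR, and 4.13 and 4.23 with siHoxc8. Its MetR libraries held as few as 5 reads, its siHoxc8 libraries were above control, and it was 6.12-fold higher with siHoxc8 than with TGF-β. Rad50, the ATPase of the complex that first holds a broken end, was at 18.2 and 16.3 FPKM in control, 9.21 and 8.76 with TGF-β, 6.61 and 6.73 with MetR, and 9.10 and 8.97 with siHoxc8. It fell with TGF-β (-0.87 ± 0.11, adjusted p = 0.000851) and again with MetR (-0.38 ± 0.11, adjusted p = 0.0176), and siHoxc8 and TGF-β libraries overlapped (0.01 ± 0.10, adjusted p = 0.962). Blm, the helicase gene of Bloom syndrome, was at 2.86 and 2.60 FPKM in control, 1.21 and 1.28 with TGF-β, 1.61 and 2.32 with MetR, and 2.66 and 3.12 with siHoxc8. Eme1, a nuclease subunit, was 3.85-fold higher with siHoxc8 than with TGF-β (1.02 ± 0.16, adjusted p = 0.00188), and its MetR libraries were at 0.107 and 0.205 FPKM.

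Among mismatch repair genes, Msh6, whose product binds mispaired bases, was at 18.0 and 18.8 FPKM in control, 14.2 and 14.6 with TGF-β, 20.1 and 26.2 with MetR, and 20.8 and 20.6 with siHoxc8. Both MetR and both siHoxc8 libraries lay above all control libraries, but neither difference of Msh6 from control was called. Msh3 was at 2.995 and 2.88 FPKM in control, 1.46 and 1.51 with TGF-β, 3.44 and 5.28 with MetR, and 3.29 and 2.79 with siHoxc8, highest with MetR, where its libraries also differed most. Both rose with MetR over TGF-β and with siHoxc8 over TGF-β. Msh5, known for its role in meiosis, was at 0.610 and 0.5002 FPKM in control, 0.506 and 0.875 with TGF-β, 0.965 and 1.97 with MetR, and 2.03 and 1.60 with siHoxc8, and its MetR and siHoxc8 libraries overlapped. Msh4, its partner, was at or under 0.0408 FPKM.

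The genes of break sensing and end joining included the most abundant of the 45, Parp1 and Xrcc6. Parp1, which senses single-strand breaks, was at 38.8 and 41.4 FPKM in control, 24.1 and 25.1 with TGF-β, 25.1 and 28.1 with MetR, and 39.0 and 36.6 with siHoxc8. It fell with TGF-β (-0.68 ± 0.10, adjusted p = 0.00177) and rose with siHoxc8 (0.60 ± 0.10, adjusted p = 0.00247). Xrcc1, its scaffold partner, was at 23.2 and 23.2 FPKM in control, 17.6 and 16.1 with TGF-β, 17.0 and 12.3 with MetR, and 19.0 and 17.4 with siHoxc8, without a call in any of the 3 comparisons. Xrcc5 and Xrcc6 encode Ku80 and Ku70, the ring that binds broken ends. Xrcc5 was at 17.6 and 19.0 FPKM in control, 14.5 and 17.1 with TGF-β, 9.37 and 9.78 with MetR, and 21.6 and 21.0 with siHoxc8, and Xrcc6 at 31.8 and 32.9 FPKM in control, 24.9 and 27.4 with TGF-β, 34.2 and 39.4 with MetR, and 42.3 and 42.2 with siHoxc8. Neither was called with TGF-β, and with MetR over TGF-β Xrcc5 fell (-0.66 ± 0.11, adjusted p = 0.00206) while Xrcc6 rose (0.48 ± 0.10, adjusted p = 0.00647). Xrcc4, the ligase cofactor, ranged from 1.90 to 4.69 FPKM and fell with TGF-β (-0.68 ± 0.21, adjusted p = 0.0403). Chek2, the kinase that relays ATM signals, was at 4.87 and 5.11 FPKM in control, 3.85 and 4.31 with TGF-β, 4.52 and 3.91 with MetR, and 7.41 and 8.94 with siHoxc8. It was called only as higher with siHoxc8 (0.85 ± 0.14, adjusted p = 0.00225), and both siHoxc8 libraries were above all others.

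A direct test of siHoxc8 against MetR, both with TGF-β, found 21 repair genes higher and 3 lower, against 24.9% and 29.3% of all genes. The higher genes include Brca2, Eme1, Exo1 and Fancb, which reached 1 FPKM only in control and siHoxc8 libraries. Their calls here are not independent of the filter. Brca1 (2.301 ± 0.12, adjusted p = 1.59e-05), Exo1 (2.21 ± 0.17, adjusted p = 6.12e-05), Fancd2 (2.06 ± 0.14, adjusted p = 3.57e-05) and Rad51c (1.97 ± 0.15, adjusted p = 5.6e-05) differed most, and Brca1 was 9.75-fold higher with siHoxc8. Fance (-0.91 ± 0.13, adjusted p = 0.000971), Fancf (-0.81 ± 0.17, adjusted p = 0.00496) and Xrcc3 (-0.51 ± 0.15, adjusted p = 0.025) were lower with siHoxc8. The proliferation markers differed in the same libraries, all 11 higher with siHoxc8. Calls were lost for Xrcc3 without MetR library 1 (0.0851), siHoxc8 library 1 (0.0509) and siHoxc8 library 2 (0.149), and for Xrcc2 and Rad50 without either siHoxc8 library (0.0503 to 0.0957).

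Against control, MetR with TGF-β left 25 repair genes lower and 2 higher, with 29.3% of all genes lower and 28.0% higher. The lower genes include Brca2, Eme1, Exo1 and Fancb, which reached 1 FPKM only in control and siHoxc8 libraries. Fancd2 stood among the genes far below control (-2.24 ± 0.14, adjusted p = 2.52e-05). The 2 higher genes were Fancf (0.56 ± 0.17, adjusted p = 0.0216) and Msh5 (0.64 ± 0.23, adjusted p = 0.0464). Both lost their calls without control library 1, control library 2 or MetR library 2. Msh5, which passed the filter through the siHoxc8 libraries and MetR library 2 only, also lost its call without either TGF-β library and without either siHoxc8 library. With siHoxc8 and TGF-β, 7 genes were higher and 7 lower than in control, with 21.7% and 27.0% of all genes. The higher genes were Msh5, Rad51c, Exo1, Chek2, Rad51ap1, Xrcc2 and Xrcc6, and the lower ones included Rad50, Rad52, Xrcc3, Fance and Palb2. Only the lower levels of Rad50 (-0.86 ± 0.11, adjusted p = 0.000574), Rad52 (-0.77 ± 0.12, adjusted p = 0.00163) and Fance (-0.64 ± 0.13, adjusted p = 0.00562) were called in every setting that tested them. Without control library 1 the counts were 0 higher and 4 lower, without control library 2 they were 3 and 3, without siHoxc8 library 1 they were 3 and 4, and without siHoxc8 library 2 they were 2 and 4. Median ratio rescaling gave 9 higher and 6 lower, and quantile normalization 10 and 5. Fancd2, Fanci, Brca1 and Bard1 had no call between siHoxc8 and control, which does not show that their levels were equal.

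Other genes of the same pathways were taken from lists outside the rule. Of 31 further Fanconi and recombination genes, 18 fell and 1 rose with TGF-β, 9 rose and 6 fell with MetR over TGF-β, and 12 rose and 1 fell with siHoxc8 over TGF-β. Among all genes 28.6% fell and 10.3% rose with TGF-β, 34.8% rose and 19.0% fell with MetR, and 28.1% rose and 15.7% fell with siHoxc8, so the counts with MetR are near those of all genes. Rmi2, a partner of BLM, and Ube2t, the ubiquitin-conjugating enzyme for FANCD2, fell with TGF-β (-1.66 ± 0.18, adjusted p = 0.000493 and -1.16 ± 0.15, adjusted p = 0.00122), fell further with MetR (-1.42 ± 0.18, adjusted p = 0.0006 and -1.64 ± 0.15, adjusted p = 0.000212) and rose with siHoxc8 (2.24 ± 0.18, adjusted p = 0.000118 and 2.34 ± 0.15, adjusted p = 6.36e-05). Usp1, which removes that ubiquitin, fell with TGF-β (-1.26 ± 0.22, adjusted p = 0.00379). Mus81, the nuclease partner of EME1, was named after its values were seen: it rose with TGF-β (0.60 ± 0.11, adjusted p = 0.0058) and fell with siHoxc8 (-1.23 ± 0.11, adjusted p = 0.000232), where Eme1 fell and rose, and it fell with MetR over TGF-β (-0.87 ± 0.11, adjusted p = 0.000751), where both Eme1 libraries were also lower without a call (-0.43 ± 0.16, adjusted p = 0.0502). Faap100, a core complex subunit, rose with MetR (1.23 ± 0.13, adjusted p = 0.000304), as did Fance and Fancf. With median ratio rescaling the counts were 13 and 3 with TGF-β, 7 higher and 9 lower with MetR, and 10 and 3 with siHoxc8.

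The shares of all genes given above also apply to the lists that follow. Of 15 further mismatch repair genes, 10 fell with TGF-β, 6 rose and 1 fell with MetR, and 12 rose with siHoxc8. Lig1 (-1.20 ± 0.13, adjusted p = 0.000489), Pold1 (-1.10 ± 0.13, adjusted p = 0.000729) and Pcna (-1.03 ± 0.18, adjusted p = 0.00399), which fill and seal the excised gap, fell most with TGF-β. Pms2, a mismatch repair endonuclease, rose with MetR (0.95 ± 0.19, adjusted p = 0.00435). Of 17 damage signalling genes, 10 fell with TGF-β (Topbp1, -1.12 ± 0.14, adjusted p = 0.000824), 7 rose and 2 fell with MetR (Hus1, 1.16 ± 0.13, adjusted p = 0.000427) and 9 rose with siHoxc8 (Timeless, 1.55 ± 0.13, adjusted p = 0.000133). Of 14 base excision and single-strand break genes, 6 fell and 1 rose with TGF-β, 8 rose and 1 fell with MetR (Lig3, 1.21 ± 0.12, adjusted p = 0.000256, the ligase partner of XRCC1) and 6 rose and 2 fell with siHoxc8 (Fen1, 1.75 ± 0.14, adjusted p = 0.000124). Of 15 nucleotide excision genes, 5 fell and 1 rose with TGF-β, 7 rose and 1 fell with MetR and 3 rose with siHoxc8, a smaller share than the 28.1% of all genes. Their median change with TGF-β was -0.14 and turned to 0.05 with median ratio rescaling. Of 4 end joining partners, Nhej1 rose (1.71 ± 0.20, adjusted p = 0.000559) and Dclre1c (-0.63 ± 0.14, adjusted p = 0.00842) and Lig4 (-0.61 ± 0.19, adjusted p = 0.0332) fell with siHoxc8 over TGF-β.

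**Figure D4:**
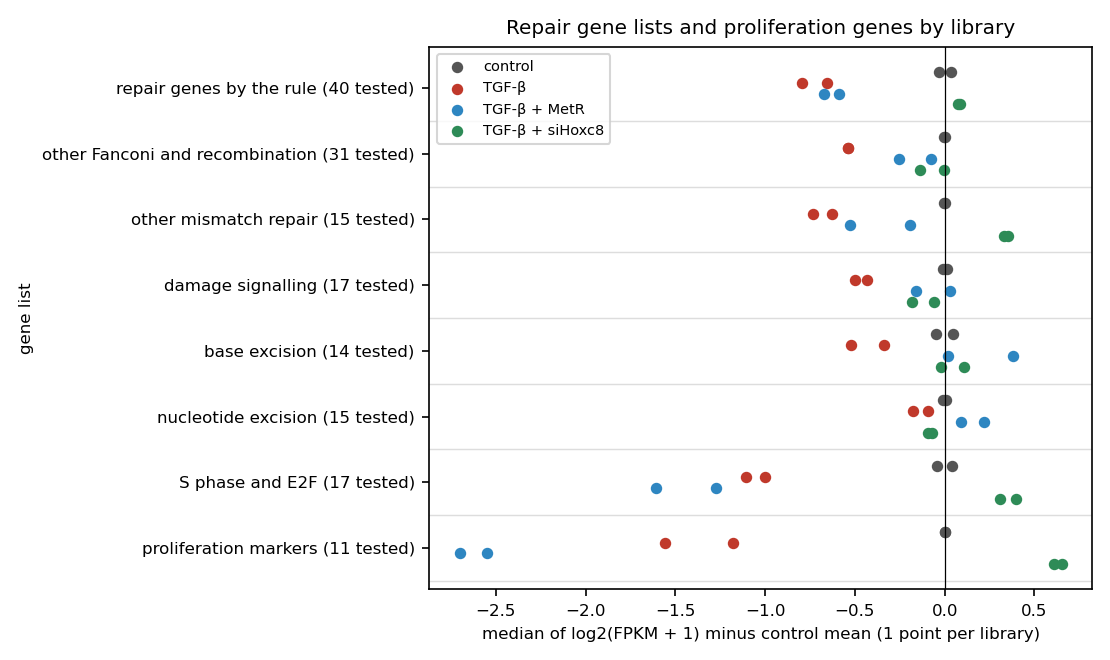
Each point is 1 library: the median over a gene list of log2(FPKM + 1) minus the mean of the control libraries, for the 40 tested repair genes and 7 other lists. The repair genes lie at -0.80 and -0.66 with TGF-β, -0.67 and -0.59 with MetR, and 0.07 and 0.09 with siHoxc8, and the proliferation markers at -1.56 and -1.18, -2.55 and -2.70, and 0.65 and 0.61.

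Reads shared with another gene could not be separated, because the strand setting of the counting is not given in the sources used here. In RefSeq's annotation 14 of the 45 genes overlap another gene of the table, among them Fancd2 (Fancd2os), Fanci (Polg), Fanca (Zfp276), Fancl (Vrk2), Brca2 (N4bp2l1), Eme1 (Lrrc59 and Mrpl27), Rad52 (Wnk1), Rad54l (Lrrc41), Xrcc3 (Klc1) and Msh6 (Fbxo11).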

How the data were processed

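The authors deposited 1 table of FPKM values with gene symbols for all 8 RNA-seq libraries, per the labels. Per the submitters' processing notes, the tools were featureCounts, deepTools, Trim Galore and Bowtie2 2.3.5.1 and the build rn6, named without roles. Annotation and strand setting: not given in the sources used here. Another 20 samples of the series (chromatin immunoprecipitation and input) were not analysed here. Whole reads were recovered from the steps between FPKM values for 19433 of the 19435 genes above 0 (tolerance 0.02 reads).

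Expression was compared as log2(FPKM + 1) with limma 3.58.1 (R 4.3.3): 1 coefficient per group over all 8 libraries, no covariates, a trend on mean expression, 4 residual and 3.47 prior degrees of freedom. The test took in the 12315 genes that reached 1 FPKM in 2 or more libraries, with two-sided p-values adjusted by Benjamini-Hochberg within each comparison at 0.05. A pseudocount of 1 understates changes of low genes. Folds are ratios of mean FPKM. The fitting was tested on simulated data, where it called somewhat more unchanged genes than the adjusted threshold allows, so calls just under 0.05 are the least secure. The comparisons of MetR and of siHoxc8 with control, and limma-voom on recovered reads, were added after values were seen.

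The members and gene lists were chosen with earlier results of these data known. Values by library are given for a set list of members, and changes for the others by size among those called; members outside these are given by range and count. Results for 3 of the 45 genes are not reported here, though counts over the set include them. The labels do not say that replicate numbers pair the libraries, so no pairing was used.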

Additional observations from a re-analysis of the deposited data

How the results depend on the processing

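Each library group held 2 libraries, which limits every test to differences well above the spread between them. Of the 28 falls with TGF-β 17 held in every setting that tested them, as did 5 of 8 rises and 6 of 10 falls with MetR over TGF-β, 19 of 26 rises with siHoxc8 over TGF-β, 18 of 21 rises and 2 of 3 falls with siHoxc8 over MetR, 0 of 2 rises and 20 of 25 falls with MetR over control, and 0 of 7 rises and 3 of 7 falls with siHoxc8 over control. Requiring a mean of at least 5 FPKM tested 16 repair genes, of which 10 fell with TGF-β. Over TGF-β, 3 rose and 3 fell with MetR, and 8 rose with siHoxc8. With siHoxc8 over MetR 7 rose, with MetR over control 0 rose and 9 fell, and with siHoxc8 over control 3 rose. Fewer genes were tested there, and the median changes were smaller too. They were -0.55 with TGF-β (-0.71 in the main fit) and 0.38 with siHoxc8 over TGF-β (0.72 in the main fit). The cause of the lower counts was not tested. With no filter 0 rose with MetR over control; the cause was not tested. Quantile normalization gave 1 rise and 18 falls with TGF-β; the rise was Fancg (0.352, adjusted p = 0.0379), against -0.01 as deposited, and the cause was not tested. Leaving out 1 library at a time, the falls with TGF-β numbered 19 to 32, with MetR over TGF-β the rises 6 to 9 and the falls 6 to 11, with siHoxc8 over TGF-β the rises 20 to 28, with siHoxc8 over MetR the rises 18 to 24 and the falls 2 to 4, with MetR over control the rises 0 to 6 and the falls 20 to 25, and with siHoxc8 over control the rises 0 to 9 and the falls 3 to 9. A group left with 1 library is assumed to vary like the others. With the replicate number as a block 29 genes fell with TGF-β. In that fit 8 rose and 8 fell with MetR over TGF-β, and 1 rose with MetR over control. Deviations of libraries with the same number correlated at -0.02 to 0.20, above 0.1 for 1 of 6 pairs of groups. Such correlations cannot show whether libraries with the same number were grown or handled together. The planned edgeR test was not run because the deposited unit is FPKM.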
